A study of Mus musculus with 6 samples.

Results

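Regulatory T cells (Treg) in 2 states, activated and resting, were compared within 7 pregnant mice. The cells were those that the authors' deposited table of CD4 subsets names Act. Treg and Resting Treg, called activated and resting Treg here. Of 7300 lymph node cells, 421 carried 1 of these names, 155 of them activated and 266 resting. Their raw counts of unique molecular identifiers (UMIs, each standing for 1 captured RNA molecule) were summed per mouse and state over both nodes, with at least 5 cells required for a sum. All 7 mice gave both sums, so 14 sums entered the comparison, made of 7 to 59 cells and 21111 to 151870 UMIs each.

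The dams were 4 Aire-DTR mice (mice 4, 7, 8 and 36) and 3 WT mice (mice 1, 6 and 97), all mated to BALB/c males, all given diphtheria toxin (DT) over the first 9 days of pregnancy and all sampled at E9.5. Aire-DTR mice carry a toxin receptor whose expression follows Aire, so DT removes Aire-expressing cells, and the WT mice received the toxin without the receptor. In the deposited cell table the pregnancy of mouse 4 was entered as resorbed and those of mice 7, 8 and 36 as IUGR (intrauterine growth restriction). Cells came from the uterine-draining node (udLN) and the brachial node (brLN), were tagged by hashtag antibodies and were run in 3 pools, 2 with 1 mouse of each genotype and pool LN with 2 Aire-DTR mice and 1 WT mouse. Neither the dams' age nor their background strain is stated in the sources used here.

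Treg are CD4 T cells that hold other immune cells in check and depend on the transcription factor Foxp3, and in pregnancy they are known for maternal tolerance of the fetus. Resting Treg circulate through lymph nodes by way of homing receptors such as Ccr7 and the egress receptor S1pr1, which the factor Klf2 maintains. Antigen encounter turns them into activated Treg, which lose these receptors and take up costimulatory receptors, inhibitory receptors and effector transcription factors.

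Of the cells of well 1 of pool LN, 2127 were deposited a second time, with the same counts in every gene, and 122 of these were Treg. Each cell was counted once here. Counted as deposited, 543 of 9427 cells were Treg, 196 activated and 347 resting. A further 419 cells, 19 of them Treg, had a barcode sequence that also occurred in another well. The sources used here do not say how the authors set the 2 names, which may rest on the same counts. The p-values therefore describe how alike the mice were given these names, and are not independent evidence that the states differ.

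Foxp3 marked both states as Treg. In cells pooled over mice, Foxp3 stood at 451 CPM (UMIs per 1000000 UMIs) in activated and 461 in resting Treg, against 37.2 in Tfh (follicular helper) and Th17 cells, 5.16 in CD4+ Naive T cells and 0.861 in B cells. In the authors' table of all cells the states were named differently: 117 of the activated cells (75.5%) were entered there as CD4+ Mem T and 38 (24.5%) as CD4+ Treg, whereas 257 resting cells (96.6%) were entered as CD4+ Treg. Foxp3 was present at 435 CPM in the activated cells entered as CD4+ Mem T and at 524 in those entered as CD4+ Treg. Less even were 3 of the activation markers: Tnfrsf9 stood at 542 and 79.8 CPM in these 2 classes, Maf at 418 and 45.6, and Tigit at 445 and 114. The activated cells entered as CD4+ Treg thus held lower levels of these 3 markers than those entered as CD4+ Mem T. This did not hold for every activation marker. With both states limited to cells entered as CD4+ Treg there too, the log2 difference of Icos was 3.38 (adjusted p = 2.49e-05, edgeR), against 3.72 over all Treg.

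Across all genes, 333 of 1210 genes tested (27.5%) differed between the states at an adjusted p under 0.05 (edgeR's quasi-likelihood test with mouse as a block and Benjamini-Hochberg adjustment). Of these, 172 were higher in activated Treg (14.2% of genes tested) and 161 lower (13.3%), and 438 had an unadjusted p under 0.05. The median log2 difference over all genes tested was 0.06. With the cells as deposited, 357 of 1541 genes passed, and 301 of them were among the 333. Of 160 tested genes listed in the authors' scaled CD4 table, 77 passed (54 higher, 23 lower), as did 256 of the 1050 genes outside it (118 higher, 138 lower). DESeq2 called 205 genes and did not call Cd5, Cd28, Ikzf3, Slamf6, Sh2d1a, Casp8, Dusp2, Aldoa, Itgb2, Klf3, Il6ra, Socs1 and Hbb-bs, which are described here with edgeR's values. Without the filter on low counts edgeR did not call Cd2, Cd5, Cd28, Ikzf3, Slamf6, Sh2d1a, Dusp2, Aldoa, Gapdh, Itgb2, Tgfb1, Izumo1r and Il6ra. With both states limited to cells entered as CD4+ Treg in the table of all cells too, which left 4 mice, 49 of 770 genes passed, and 27 of the 333 genes had the opposite sign there. The activated sums of that fit held only 5 to 9 cells each. The part of these small sums in the lost calls and changed signs was not tested. Of the 79 genes named by rule and called, 55 could be tested in those cells, 48 had the same sign and 14 were called. Of the genes described here, those tested in these cells and not called there were Cd2, Cd3e, Cd3g, Cd5, Tnfrsf18, Ikzf3, Sh2d1a, Tsc22d3, Lef1, Foxn3, Il6ra, S100a10, Capg, Emp3, Nfkbia, Dusp2, Selplg, Pkm, Gapdh, Aldoa, Ighm, Socs1 and Hbb-bs, besides those named beside their results.

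A gene was tested only where it reached 117 CPM in at least 7 of the 14 sums, so a gene near 0 in 1 state could enter only through the other. Of the tested genes, 1014 had a mean above that level in both states, and 266 of these passed, 132 higher and 134 lower. The other 196 were below it in 1 state, and 67 of them passed. From here on levels are CPM after TMM scaling, given as the lowest, the median and the highest of the 7 mice. Differences are log2 of activated over resting. Counts of list members are over those tested and serve as descriptions.

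Costimulatory receptors of the TNF receptor and CD28 families were among the widest differences. Tnfrsf9 (4-1BB) had 284, 474 and 1158 CPM in activated and 0, 29.8 and 37.3 CPM in resting Treg. Icos, a costimulator of the CD28 family, had 571, 728 and 980.2 CPM against 29.5, 53.6 and 130.4 CPM. For both receptors every activated sum lay above every resting sum, and the log2 differences were 4.52 (SE 0.28, adjusted p = 5.12e-14) and 3.72 (SE 0.20, adjusted p = 1.61e-15). Every resting sum of Tnfrsf9 was under the level of the filter. Tnfrsf9 thus entered the test only through the activated sums, and its difference and lack of overlap serve as descriptions. Tnfrsf4 (OX40) had 573, 1654 and 1968 CPM in activated and 244, 356 and 543 CPM in resting Treg, again without overlap, a log2 difference of 2.13 (SE 0.17, adjusted p = 1.68e-11). In the cells entered as CD4+ Treg in both tables it was 0.90 and not called (adjusted p = 0.132, edgeR). Tnfrsf18 (GITR), which resting Treg also carry, rose by 0.93 (SE 0.14, adjusted p = 2.6e-06), from 281, 382 and 447 CPM to 506, 686 and 803 CPM. Of the 7 tested members of this receptor list, 6 were higher and none lower, Cd28 by 0.70 (adjusted p = 0.00457) and Cd2 by 0.47 (adjusted p = 0.0026) among them. Tnfrsf9 and Icos were the 2 whose resting mean was under the level of the filter. The seventh, Cd27, had a difference of 0.43 (adjusted p = 0.0827), and the list's median was 0.93 against 0.06 over all genes.

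**Figure D1:**
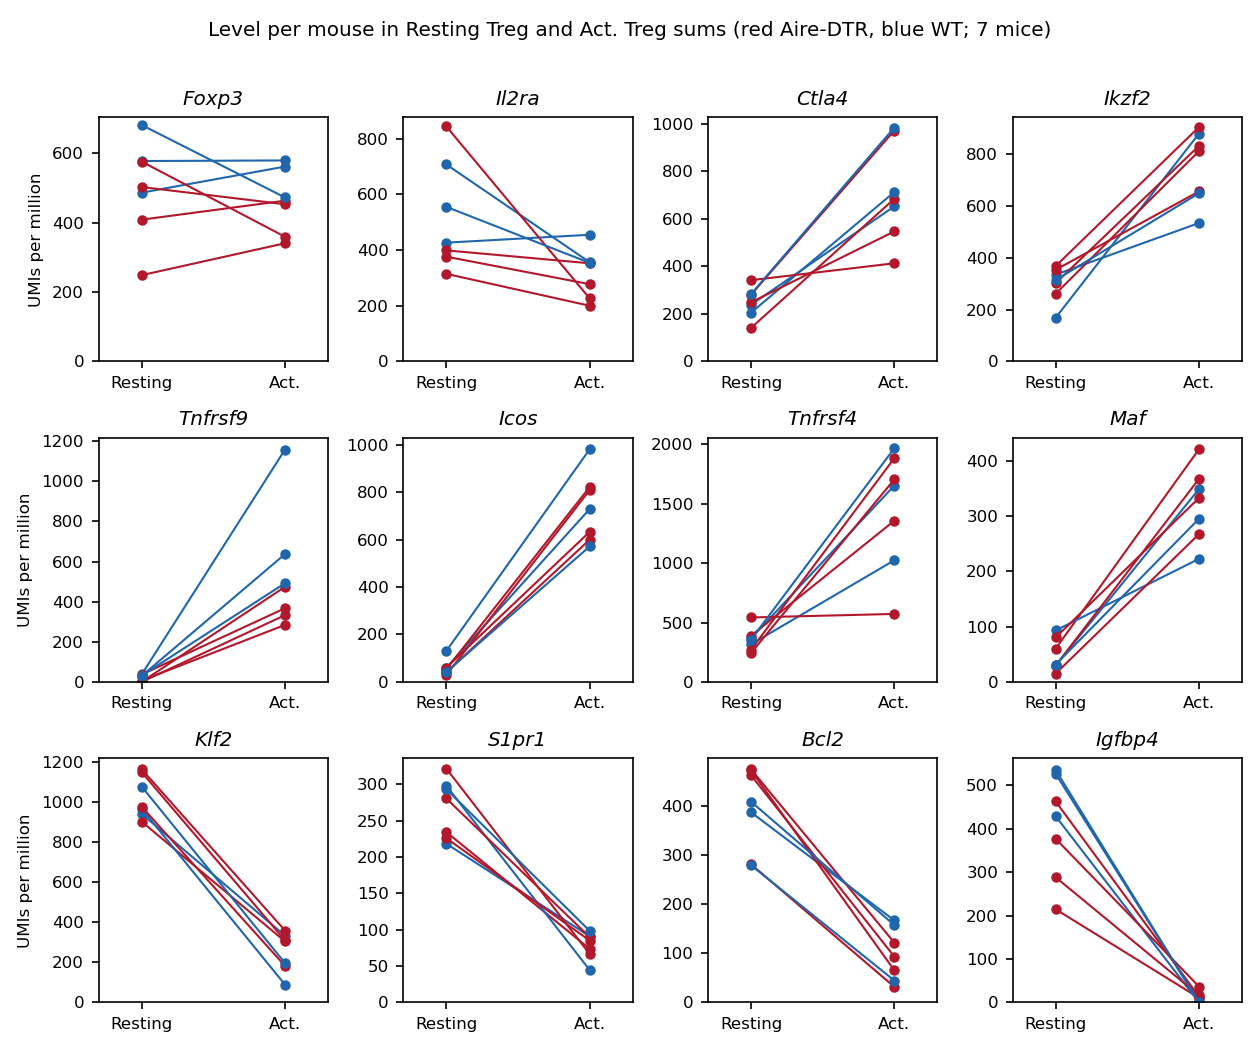
Levels of 12 genes in resting and activated Treg, in CPM after TMM scaling (vertical axis), with 1 line per mouse joining its 2 sums (red, Aire-DTR; blue, WT). For all but Foxp3 and Il2ra the activated and resting values do not overlap, which for Tnfrsf9, Maf, S1pr1 and Igfbp4 follows from the filter. The Foxp3 lines run in both directions.

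Among inhibitory receptors, Tigit had UMIs in every activated sum and in no resting sum. Its level in activated Treg was 195, 400.1 and 757 CPM. Summed over mice this was 192 against 0 UMIs, at least 95.4-fold higher when 3 UMIs over the whole group are taken as the limit for a count of 0 (adjusted p = 4.49e-13, edgeR). Tigit thus entered the test only through the activated sums, and its difference serves as a description. Ctla4, which withdraws costimulatory ligands from antigen-presenting cells, had 413, 684 and 984 CPM against 141, 249 and 342 CPM, with no overlap, a log2 difference of 1.56 (SE 0.17, adjusted p = 4.07e-09). Cd5, a brake on antigen receptor signalling, had a difference of 0.59 (adjusted p = 0.00468). These were all 3 tested members of the list, of which Tigit alone was under the level of the filter in resting Treg, and their median of 1.56 was the same with Tigit set at its bound.

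The Treg core genes moved in different directions. Foxp3 had 340.5, 463 and 579 CPM in activated and 249, 503 and 681 CPM in resting Treg and was higher in 4 of 7 mice. Its log2 difference of -0.10 (SE 0.15, adjusted p = 0.655) did not pass the test. Il2ra (CD25), the high-affinity chain of the interleukin-2 receptor, had 200.0, 353 and 455 CPM against 315, 427 and 844 CPM, lower in 6 of 7 mice and overlapping between states, a log2 difference of -0.61 (SE 0.18, adjusted p = 0.00808). In the cells entered as CD4+ Treg in both tables the Il2ra difference was 0.46 and not called, and it was not called in either node alone. Ikzf2 (Helios), a Treg transcription factor, had 535, 812 and 905 CPM against 169, 314 and 368 CPM, without overlap, a log2 difference of 1.35 (SE 0.15, adjusted p = 1.09e-08). Izumo1r (folate receptor 4) had 924, 1083 and 1572 CPM against 615, 794 and 1132 CPM and rose by 0.50 (SE 0.11, adjusted p = 0.000851), though its ranges overlapped. Of 7 tested core genes 4 were higher (Ctla4, Ikzf2, Tnfrsf18 and Izumo1r) and 1 lower (Il2ra), with a median of 0.50. The beta chain Il2rb had a difference of -0.40 (adjusted p = 0.0872).

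Of the list of 18 effector transcription factors 3 were tested, and Maf and Batf, with resting means of 48.5 and 31.0 CPM, entered the test only through the activated sums. Maf, which drives interleukin-10 expression in T cells, had 223, 333 and 421 CPM in activated and 15.1, 31.4 and 93.1 CPM in resting Treg, a log2 difference of 2.96 (SE 0.26, adjusted p = 6.5e-11). Batf, an AP-1 family factor needed by tissue Treg, had 159.8, 232 and 433 CPM against 0, 30.1 and 60.3 CPM, a difference of 2.97 (SE 0.31, adjusted p = 2.82e-09). The ranges of both factors stood apart, and with that way of entry their differences serve as descriptions. The third tested member, Ikzf3 (Aiolos), was higher by 0.65 (adjusted p = 0.00945), a call that was lost with DESeq2, without the filter, in brLN alone, without mouse 36, in the cells entered as CD4+ Treg in both tables (0.16) and with the cells that held UMIs of other cell types left out (0.54). Tox, from the follicular regulatory list, had 223, 253 and 305 CPM against 66.4, 105 and 112 CPM and a difference of 1.51 (SE 0.21, adjusted p = 5.47e-07). With every resting sum under the level of the filter, Tox too entered only through the activated sums, and its difference serves as a description. The adaptor Sh2d1a and its receptor Slamf6 rose with it, by 0.85 (adjusted p = 0.00181) and 0.68 (adjusted p = 0.0183). Slamf6 was not called without mouse 1 or without mouse 36. Suppressor mediators were represented by Tgfb1, a secreted cytokine, and the galectin Lgals1, with differences of 0.73 (adjusted p = 0.0018) and 0.89 (adjusted p = 9.27e-06). Neither kept its call in the cells entered as CD4+ Treg in both tables.

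Transcription factors of quiescent T cells were lower in activated Treg. Klf2 had 89.1, 305 and 359.6 CPM in activated and 904, 979 and 1166 CPM in resting Treg, without overlap, and fell by 1.92 on the log2 scale (SE 0.14, adjusted p = 3.03e-12, edgeR). Satb1, a chromatin organiser, had 0, 73.7 and 98.4 CPM against 149, 159 and 261 CPM, also without overlap, a difference of -1.55 (SE 0.30, adjusted p = 0.00012). Every activated sum of Satb1 was under the level of the filter. Satb1 thus entered the test only through the resting sums, and its difference and lack of overlap serve as descriptions. Lef1 had 60.7, 138 and 312 CPM against 186, 214 and 543 CPM, and Tsc22d3 (GILZ), a glucocorticoid-induced gene, 32.7, 89.1 and 170.2 CPM against 168, 347 and 462 CPM. Their differences were -0.91 (adjusted p = 0.000736) and -1.87 (adjusted p = 1.38e-07), with overlapping ranges in both. Tcf7, a relative of Lef1, had 0, 107 and 155 CPM against 49.6, 141 and 173 CPM and a difference of -0.32 (adjusted p = 0.463). Of 13 tested factors of this list 6 were lower and none higher, Foxn3 (-0.91, adjusted p = 8.39e-06) and Klf3 (-0.98, adjusted p = 0.0101) being the other two, and the median was -0.43. Both states were above the level of the filter for 9 of the 13.

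The homing receptor Ccr7 and the egress receptor S1pr1 fell in activated Treg. S1pr1, by which T cells leave the node, had 44.6, 85.1 and 98.4 CPM against 218, 281 and 322 CPM, a log2 difference of -1.66 (SE 0.22, adjusted p = 2.67e-07). Ccr7, the receptor for T-zone chemokines, had 89.1, 159.8 and 288 CPM against 302, 388 and 561 CPM, a difference of -1.13 (SE 0.21, adjusted p = 5.87e-05). For both receptors each resting sum lay above each activated sum. Every activated sum of S1pr1 was under the level of the filter. S1pr1 thus entered the test only through the resting sums, and its difference serves as a description. S1pr1 differed by -1.37 in the cells entered as CD4+ Treg in both tables and was not called there (adjusted p = 0.0934, edgeR). Ccr7 differed by 0.06 in those cells. Igfbp4, a gene of naive T cells that encodes an insulin-like growth factor binding protein, had 0, 10.5 and 36.5 CPM against 214, 428 and 535 CPM and fell by 4.65 on the log2 scale (SE 0.33, adjusted p = 8.44e-13, edgeR). Igfbp4 too entered the test only through the resting sums, and its difference serves as a description. Of 10 tested naive surface and resting genes 7 were lower, and the median was -0.89. Both states were above the level of the filter for 7 of the 10. Il6ra, a receptor chain for interleukin-6, had a difference of -0.64 (adjusted p = 0.0302), a call lost without mouse 1, 4, 7 or 36. Il7r, the interleukin-7 receptor, was not among the 7 (0.48, adjusted p = 0.0819).

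**Figure D2:**
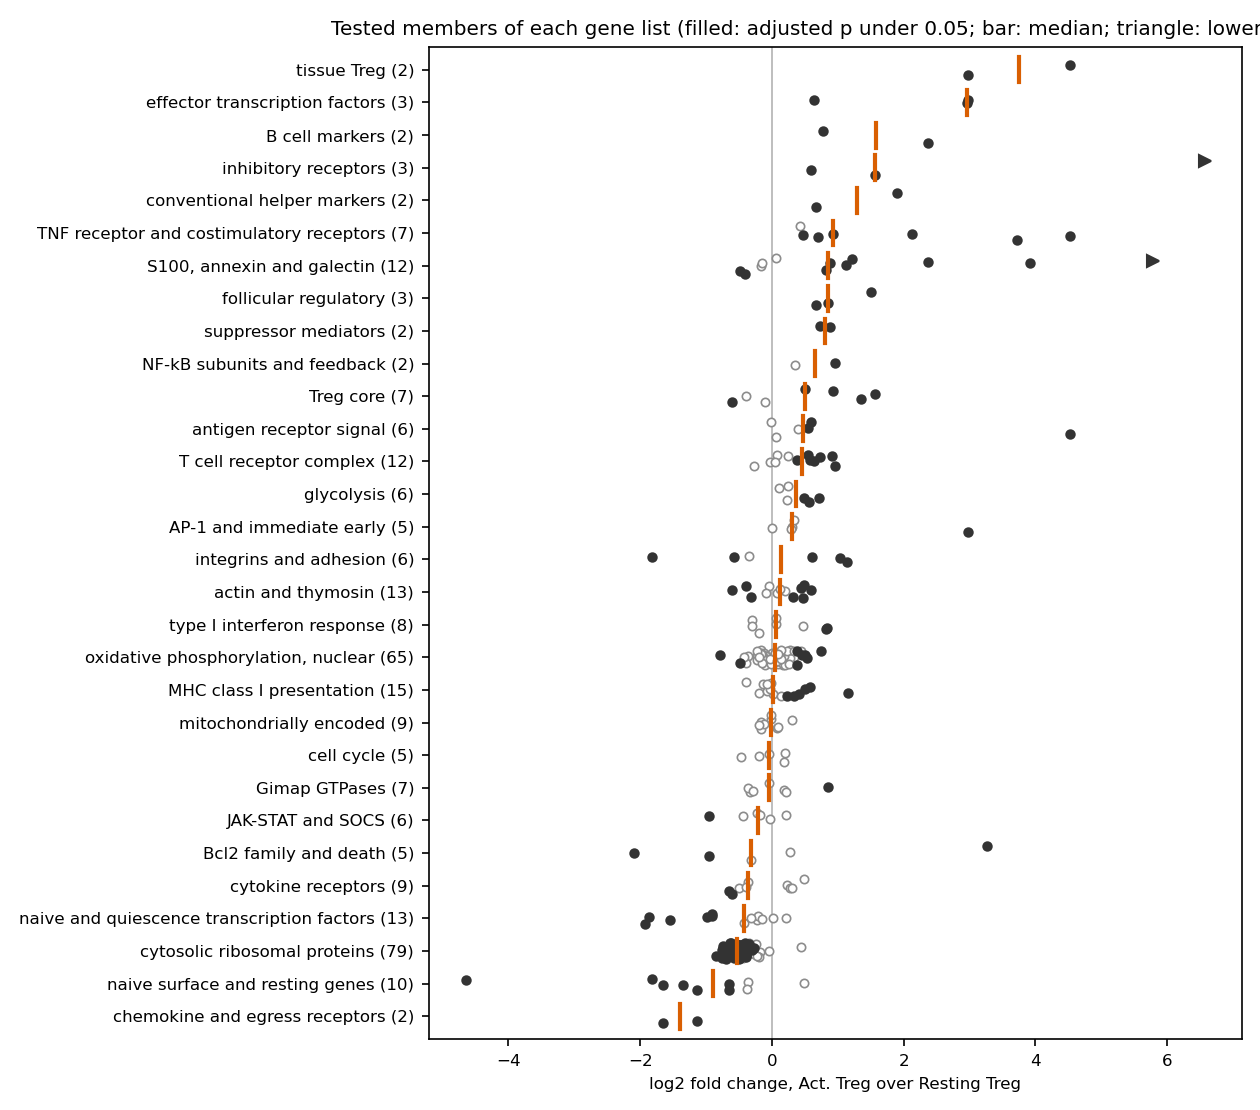
Log2 difference of activated over resting Treg (horizontal axis) for each tested member of the gene lists with at least 2 tested members. Filled points passed at an adjusted p under 0.05, orange bars are list medians, and triangles stand at the lower bounds of Tigit and S100a4. Most ribosomal protein genes lie to the left of 0, and the TNF receptor and inhibitory receptor lists lie to the right.

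Survival genes of the Bcl2 family moved in opposite directions. Bcl2, an inhibitor of apoptosis, had 31.6, 93.2 and 167 CPM in activated and 279, 409 and 474 CPM in resting Treg, without overlap, a log2 difference of -2.09 (SE 0.22, adjusted p = 3.83e-09). In the cells entered as CD4+ Treg in both tables it was -0.54 and not called (adjusted p = 0.451, edgeR). Bcl2a1b, another inhibitor of the family, had 197, 267 and 547 CPM against 0, 31.4 and 44.3 CPM and a difference of 3.27 (SE 0.28, adjusted p = 4.88e-11). Its reads can be shared with near-identical copies of the gene, so its level is uncertain. Every resting sum of Bcl2a1b was under the level of the filter. It thus entered the test only through the activated sums, and its difference serves as a description. Both states were above the level of the filter for 1 of the 5 tested members of the list. Casp8 had a difference of -0.96 (adjusted p = 0.00912), which did not pass without mouse 4.

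Calcium-binding S100 genes were among the widest differences. S100a4 had 178, 212 and 279.7 CPM in activated Treg and no UMI in any resting sum, 111 against 0 UMIs, at least 55.2-fold higher with the same limit (adjusted p = 1.18e-10, edgeR). S100a4 thus entered the test only through the activated sums, and its difference serves as a description. S100a6 had 134, 846 and 1638 CPM against 0, 22.1 and 159 CPM, and its ranges overlapped although it was higher in every mouse. Its log2 difference was 3.92 (SE 0.25, adjusted p = 9.21e-14). S100a11 and S100a10 followed with 2.37 (adjusted p = 4.75e-10) and 1.13 (adjusted p = 7.04e-10), both without overlap. Lgals1, Capg and Ahnak completed the 7 of 12 tested members that were higher, while Emp3 (-0.49, adjusted p = 0.0043) and Crip1 (-0.40, adjusted p = 0.0038) were lower. In brLN alone Crip1 turned to 0.0043 and neither of these was called. The list median was 0.86, the same with S100a4 at its bound. It was -0.19 over the 9 members tested in udLN alone, and 0.04 over the 8 tested in the cells entered as CD4+ Treg in both tables. S100a4 and S100a6 could be tested in neither, and S100a11 not in those CD4+ Treg cells. These 2 medians thus cover other members than the median of 0.86 and cannot be set beside it as a change. Both states were above the level of the filter for 8 of the 12.

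The T cell receptor complex and its proximal kinase were higher in activated Treg. Cd3d had 1412, 1782 and 1836 CPM against 993, 1115 and 1267 CPM and Cd3g 1252, 1478 and 1958 CPM against 755, 913 and 1092 CPM, neither with overlap. Their differences were 0.55 (adjusted p = 1.89e-05) and 0.73 (adjusted p = 6.87e-07). Cd3e rose by 0.65 (adjusted p = 4.28e-06) and the kinase Zap70 by 0.97 (adjusted p = 0.000161). Of 12 tested members 7 were higher and none lower, with a median of 0.46. Nfkbia, an inhibitor of NF-kB that NF-kB itself induces, had 466, 774 and 1011 CPM against 298, 384 and 623 CPM, overlapping, a difference of 0.95 (SE 0.16, adjusted p = 1.93e-05). Of 6 tested genes that answer antigen receptor signals 3 were higher, Tnfrsf9, Cd5 and Dusp2, and the median was 0.47. Dusp2 had 0.55 (adjusted p = 0.032), a call lost without any 1 of 5 mice (4, 6, 7, 8 or 97), whereas Cd69 had 0.39 (adjusted p = 0.196) and Myc -0.02 (adjusted p = 0.982). Below the filter, and chosen after their values were seen, the factors Irf4 (50 against 3 UMIs), Nfatc1 (79 against 28 UMIs), Egr2 (19 against 0 UMIs), Nr4a1 (34 against 9 UMIs) and Egr1 (65 against 34 UMIs) and the NF-kB regulator Nfkbid (52 against 26 UMIs) passed when tested without it. Of these 6, Nfatc1 was higher in 7 of 7 mice, Irf4, Egr2 and Nfkbid in 6, Egr1 in 5 and Nr4a1 in 4. Batf was the 1 AP-1 family or immediate early gene of 5 tested that passed.

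Smaller differences were seen in genes of adhesion and glycolysis. The integrins Itgal and Itgb1 were higher by 1.14 (adjusted p = 0.000304) and 1.04 (adjusted p = 0.00104), and Itgb2 by 0.61 (adjusted p = 0.00958), a call lost without mouse 36, whereas the selectin ligand Selplg had a difference of -0.57 (adjusted p = 0.00406). Of 6 tested glycolysis genes 3 were higher: Pkm by 0.71 (adjusted p = 5.98e-05), Gapdh by 0.56 (adjusted p = 8.79e-05) and Aldoa by 0.49 (adjusted p = 0.00962). No cell cycle gene of 5 tested passed. Mki67, the proliferation marker, had 2 UMIs in activated and 0 in resting Treg, below the filter. Mcm6, a subunit of the replicative helicase, was also below it with 64 against 25 UMIs, higher in 7 of 7 mice, and passed without the filter (log2 difference 1.68, adjusted p = 0.000123, edgeR), a gene chosen after its values were seen. Of 65 nuclear oxidative phosphorylation genes 6 were higher and 2 lower, and none of 9 mitochondrially encoded genes passed. Over all genes tested, 14.2% were higher and 13.3% lower. The median of the nuclear oxidative phosphorylation list was 0.05, near the 0.06 over all genes, so that list did not stand out.

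Ribosomal protein genes were lower in activated Treg almost throughout. They made up 23.9, 25.0 and 28.1% of all UMIs (lowest, median and highest of the activated sums) and 33.9, 34.3 and 35.8% of those of resting sums. The ranges did not overlap and all 7 mice showed the same direction. Of 79 tested genes 70 were lower and none higher, 78 had a log2 difference below 0, and the median was -0.53. Rps19 had 2453, 3189 and 4022 CPM against 5129.9, 5471 and 6315 CPM, a difference of -0.84 (SE 0.07, adjusted p = 5.21e-11). Genes per cell moved with the state as well. The median number per cell, averaged over mice, was 1353 in activated and 1163 in resting Treg (higher in 6 of 7 mice, exact two-sided sign-flip permutation p = 0.0312). With each cell thinned to 1500 UMIs, which left out 15 activated and 18 resting cells, these were 846 and 765, a difference of 81.1 (SD 29.5, higher in 7 of 7 mice, exact sign-flip permutation p = 0.0156, the smallest possible). The median UMIs per cell differed by 201 (SD 705, n = 7, exact sign-flip permutation p = 0.438). On the thinned cells 183 of 461 genes passed, and 160 of them were among the 333. The part of the ribosomal share in the other differences was not tested.

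**Figure D3:**
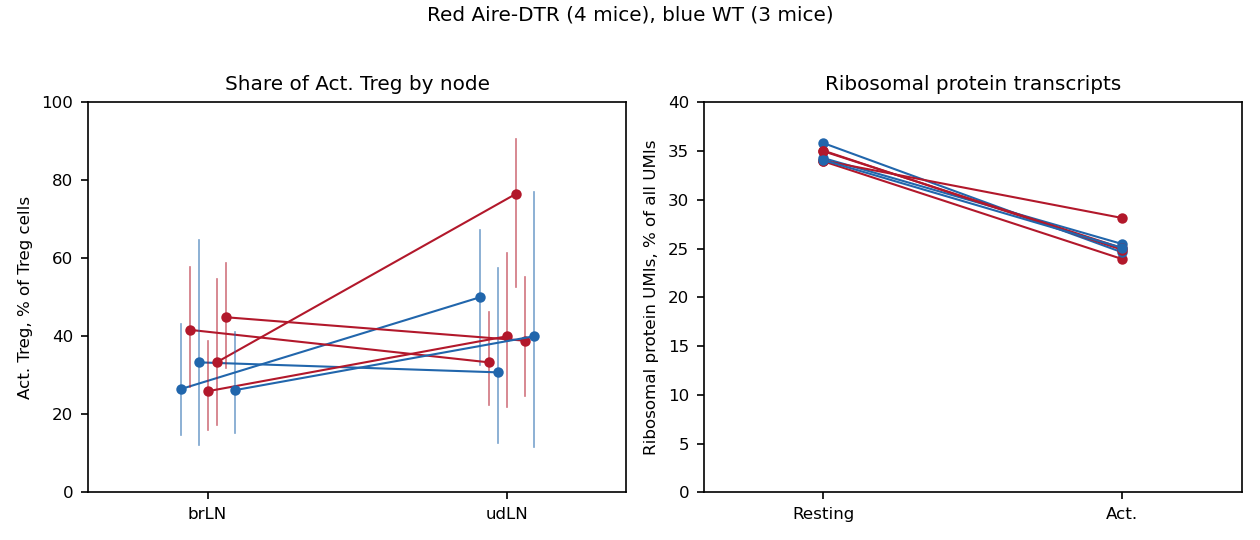
Left, activated cells as a percent of all Treg for each mouse in brLN and udLN, with 95% Wilson intervals. Right, ribosomal protein UMIs as a percent of all UMIs in resting and activated sums of each mouse; the activated sums end at 28.1% and the resting sums start at 33.9%.

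Genes of other cell types also differed between the states. Cd74, the invariant chain of MHC class II, had 316, 394 and 852 CPM in activated and 60.3, 81.2 and 143 CPM in resting Treg, without overlap, a difference of 2.37 (SE 0.20, adjusted p = 5.21e-11). Ighm, an immunoglobulin heavy chain gene, had a difference of 0.77 (adjusted p = 9.84e-05). Summed per mouse, the B cell list ranged from 961 to 2484 CPM, here without TMM scaling, in activated and from 362 to 588 in resting Treg, with both of its 2 tested members higher. Of the B cell defining genes, Cd79a was at 28.2 and 9.44 CPM against 4711 in B cells, and Ms4a1 at 6.04 and 1.35 CPM against 1089.9. The CD8 T and NK list summed to 201 to 2132 CPM in activated and 64.6 to 382 in resting Treg, the highest value being that of mouse 6. The list of conventional helper T cell genes summed to 470 to 911 CPM in activated and 240 to 383 in resting Treg, without overlap, and its 2 tested members, Slamf6 and the Rab regulator Tbc1d4 (1.91, adjusted p = 1.52e-07), were higher. With the 92 cells that held a UMI of Cd79a, Cd79b, Cd8a, Cd8b1 or Lyz2 left out, Cd74 differed by 1.88 (SE 0.23) and Ighm by 0.78 (SE 0.17), both with adjusted p under the threshold (6.51e-09 and 0.000182, edgeR). In that fit Tnfrsf9 differed by 4.39 and Klf2 by -2.07, and 249 of 739 genes passed. The part of other cells' RNA in the remaining differences was not tested. Of the erythroid list, Hbb-bs had a difference of -0.81 (adjusted p = 0.0138), with near-identical copies that make its level uncertain, and it lost its call without mouse 36 and with the cells as deposited. In the mice of pool LN the erythroid list summed to at most 47.1 CPM in either state, without TMM scaling. In pools 1 and 2 it was lower in activated Treg except in mouse 6 (1042 against 740 CPM).

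Many genes of Treg effector function were too low for the filter, which removed 262 of the 574 list members in the files. Tested without it, 47 of these passed, 40 higher and 7 lower. Over all 10943 genes that the filter removed, 179 passed (1.64%), 122 higher (1.11%) and 57 lower (0.521%). The lists were chosen with results of these data known, and the members described here were chosen after their values were seen. The chemokine receptor Ccr8, a marker of activated tissue Treg, had 100 against 5 UMIs, summed over 497053 UMIs of activated and 741205 UMIs of resting Treg. The other receptors of that kind were Ccr4 (63 against 3 UMIs), Ccr6 (55 against 3 UMIs) and Ccr2 (48 against 1 UMIs). Inhibitory receptors below the filter included Lag3 (86 against 5 UMIs), Pdcd1 (74 against 11 UMIs) and Klrg1 (33 against 0 UMIs). Lag3 was higher in 7 of 7 mice, Pdcd1 in 6 and Klrg1 in 5. The decoy receptor Il1r2 had 86 against 0 UMIs and the enkephalin precursor Penk 102 against 0 UMIs, the latter in 6 of 7 mice. Mediators of suppression were also seen, with Itgae at 60 against 7 UMIs, Gzmb at 34 against 1 UMIs and Ebi3 at 37 against 4 UMIs. Gzmb was higher in 5 of 7 mice, and Itgae and Ebi3 in 7 of 7. Of the CD8 T and NK list, Nkg7 (102 against 21 UMIs), Ccl5 (39 against 5 UMIs) and Eomes (23 against 0 UMIs) passed without the filter too. The part of CD8 T or NK cell RNA in the Gzmb difference was not tested. Prdm1, which encodes Blimp-1, had 18 against 3 UMIs. Il10 had 9 against 0 UMIs, at least 4.47-fold higher, and was not among the 47 that passed. On the resting side Ly6c1 had 2 against 257 UMIs, with reads that its near-identical copy Ly6c2 can share. Gpr83, a Treg receptor, had 34 against 116 UMIs and the interferon-induced Usp18 6 against 73 UMIs. Cd44, by which activated T cells are often sorted, had 51 against 23 UMIs (log2 difference 1.49, adjusted p = 0.0036, edgeR without the filter).

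Promoters of 4 genes with wide differences, 2 in each direction, are shown for the sequence before each start. Each is 250 bases on the plus strand of build GRCm38.p6, from RefSeq, and capitals mark matches on either strand to AP-1 (TGANTCA), kappa B (GGGA, any 4 bases, CC), KLF (CCACCC) and FOXO (GTAAACA) motifs. Higher in activated Treg were Tnfrsf9, at chr4:150919905-150920154, and S100a4, at chr3:90603520-90603769. Lower were Igfbp4, at chr11:99040994-99041243, and Klf2, at chr8:72318812-72319061. Each window ends at the RefSeq start of its gene. The spans that GENCODE gives start at 150914562 for Tnfrsf9, so that this window lies inside the gene there, and at 72319033 for Klf2, so that the last bases of its window do.
Tnfrsf9: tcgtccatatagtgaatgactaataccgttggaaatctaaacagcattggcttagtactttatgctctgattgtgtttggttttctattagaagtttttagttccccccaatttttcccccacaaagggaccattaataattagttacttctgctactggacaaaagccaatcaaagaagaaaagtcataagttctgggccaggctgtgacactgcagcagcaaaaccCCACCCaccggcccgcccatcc
S100a4: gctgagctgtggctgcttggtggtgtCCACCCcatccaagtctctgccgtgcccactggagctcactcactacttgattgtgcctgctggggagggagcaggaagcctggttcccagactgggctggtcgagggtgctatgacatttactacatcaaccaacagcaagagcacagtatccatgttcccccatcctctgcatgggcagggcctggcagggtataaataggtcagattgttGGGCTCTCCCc
Igfbp4: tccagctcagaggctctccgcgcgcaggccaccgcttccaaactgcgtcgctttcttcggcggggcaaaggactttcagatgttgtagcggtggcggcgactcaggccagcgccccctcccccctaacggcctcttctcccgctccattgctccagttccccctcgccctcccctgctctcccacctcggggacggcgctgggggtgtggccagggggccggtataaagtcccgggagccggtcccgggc
Klf2: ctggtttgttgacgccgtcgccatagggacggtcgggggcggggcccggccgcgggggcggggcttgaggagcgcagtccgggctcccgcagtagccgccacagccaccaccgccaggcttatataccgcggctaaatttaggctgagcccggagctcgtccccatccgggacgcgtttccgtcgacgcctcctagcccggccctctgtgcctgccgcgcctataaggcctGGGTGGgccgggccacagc
Tnfrsf9 and Klf2 each held 1 KLF match, S100a4 held 1 KLF and 1 kappa B match, and Igfbp4 held none of the 4 motifs in this window. The motifs did not overlap here.

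Motif shares over all called genes are given as a description. Of the genes called, 130 higher and 122 lower had a promoter in the RefSeq table. A kappa B match was found in 34 of the 130 (26.2%) and 24 of the 122 (19.7%), against 20.4% of the 935 tested genes with a promoter and 17.3% of all 27025 promoters. A KLF match was found in 31.5% and 31.1%, against 31.9% of tested genes and 27.7% of all. AP-1 matches were found in 6.15% and 4.10%, against 4.92% and 6.87%. FOXO matches were found in 0 of 130 and 3 of 122, against 2.03% and 3.09%. A match is a run of letters and not a measured binding site.

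Each node was also tested alone, on parts of the sums that chose the 79 genes, so that their signs there are no independent support. The brLN fit held 6 mice and the udLN fit 4 (mice 1, 4, 7 and 36), in sums of 7 to 40 and 8 to 38 cells. Values and calls of the 2 nodes thus rest on different mice and numbers of cells. In brLN alone 55 of the 79 genes could be tested and 45 were called, and in udLN alone 51 could be tested and 36 were called. Of the genes described here, Il2ra, Selplg, Hbb-bs, Ikzf3, Socs1, Emp3 and Crip1 were tested and not called in brLN, and Il2ra, Tnfrsf18, Dusp2, Selplg, Tgfb1, Aldoa, Izumo1r, Pkm, Foxn3, Itgb2 and Cd5 in udLN. Icos differed by 3.77 in brLN and 4.15 in udLN, and Klf2 by -1.77 and -1.95. Tnfrsf18 differed by 1.26 in brLN and by 0.40 in udLN, where it was not called (adjusted p = 0.304, edgeR). The test of state by node, over 594 genes in 10 pairs of sums from 6 mice, called 0 genes (0%), with 29 at an unadjusted p under 0.05 by edgeR and 10 by DESeq2, which also called 0. Its smallest p-values belonged to the cytoskeletal gene Vim (udLN minus brLN -1.12, SE 0.26, adjusted p = 0.137, edgeR) and the GTPase Gimap6 (1.24, SE 0.33, adjusted p = 0.148). Without mouse 1 or mouse 4 it called 2 genes, and without mouse 7 it called 1.

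The state difference was also compared between genotypes. Icos had mean per-mouse differences of 3.44 in Aire-DTR and 3.03 in WT mice, and Klf2 of -1.81 and -2.30. The test of state by genotype called 3 of 1210 genes (0.248%), 2 above 0 (0.165%) and 1 below (0.0826%), 2 of them T cell receptor segments that are counted and not named here. The third was Lars2, a mitochondrial leucyl-tRNA synthetase, whose state difference averaged 0.37 in Aire-DTR and -0.49 in WT mice (interaction 0.82, SE 0.18, adjusted p = 0.0225, edgeR). Lars2 kept its call without mouse 1 or mouse 8 and lost it without any 1 of the other 5 (adjusted p up to 0.688, without mouse 97). The count of 3 became 7 without mouse 8, 1 without mouse 7 or mouse 36 and 0 without mouse 97. DESeq2 called 0 genes, 11 having an unadjusted p under 0.05 against 47 by edgeR. Socs1, a feedback inhibitor of cytokine signalling that was lower in activated Treg overall (-0.95, adjusted p = 0.00463), averaged -1.42 in Aire-DTR and 0.22 in WT mice, an interaction of -1.71 (SE 0.46, adjusted p = 0.141, edgeR).

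The share of Treg that were activated varied between mice. Over both nodes it was 27.7% (lowest), 36.6% (median) and 52.6% (highest), and the highest was mouse 8, an Aire-DTR dam. Aire-DTR mice averaged 40.3% ± 9.7 (SD, n = 4) and WT mice 32.2% ± 4.7 (SD, n = 3), a difference within the spread of the mice (exact two-sided permutation p = 0.286, smallest possible 0.0571). By pool, the Aire-DTR mouse of pool 1 had 52.6% and its WT mouse 31.8%, those of pool 2 had 42.4% and 27.7%, and in pool LN the 2 Aire-DTR mice had 36.6% and 29.7% beside 37.1% in the WT mouse. In udLN the share averaged 44.2% and in brLN 33.1%, a paired difference of 11.1 percentage points (SD 18.5, n = 7, higher in udLN in 4 of 7 mice, exact sign-flip permutation p = 0.188, smallest possible 0.0156). Without mouse 8, whose udLN gave 13 activated cells of 17 (76.5%), the node difference was 5.75 points and the genotype difference 4.02 points. With the cells as deposited the 2 differences were 7.88 points (genotypes) and 11.07 points (nodes). With the cells that held UMIs of other cell types left out they were 3.19 points (genotypes, exact permutation p = 0.629) and 5.90 points (nodes, exact sign-flip permutation p = 0.453).

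To show where the Treg contrast differs from that of other CD4 cells, it was set against Tfh and Th17 cells (241, summed) minus CD4+ Naive T cells (1703). This difference of differences passed for 95 of 1975 genes (4.81%), 34 above 0 (1.72%) and 61 below (3.09%), with 295 at an unadjusted p under 0.05. The count was 61, 57 and 60 without mouse 1, 4 and 7. A value above 0 means that the Treg difference was the higher of the pair. The other set holds 2 helper lineages and naive cells, so it is not the same activation step in another lineage. Levels in this fit are scaled over its 28 sums.

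Genes with a higher value in the Treg contrast included Nfkbia and the T cell receptor chains. Nfkbia had 460.0, 754 and 979 CPM in activated and 298, 379 and 628 CPM in resting Treg, but 201, 239 and 316 CPM in Tfh and Th17 and 245, 276 and 359.9 CPM in CD4+ Naive T cells, a difference of differences of 1.15 (SE 0.20, adjusted p = 9.89e-05). Cd3d had 1393, 1698 and 1790.0 CPM in activated Treg and 884, 1112 and 1286 CPM in Tfh and Th17 cells, and the lowest activated Treg sum lay above the highest Tfh and Th17 sum. Its value was 0.74 (SE 0.11, adjusted p = 6.39e-06). Tnfrsf9 in Tfh and Th17 cells was at 0, 26.5 and 50.1 CPM, below every activated Treg sum, and its value was 2.42 (SE 0.68, adjusted p = 0.0277). Icos, by contrast, was high in both activated sets, at 267, 295 and 582 CPM in Tfh and Th17 cells, and its value of 0.83 (SE 0.27, adjusted p = 0.0689) did not pass.

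**Figure D4:**
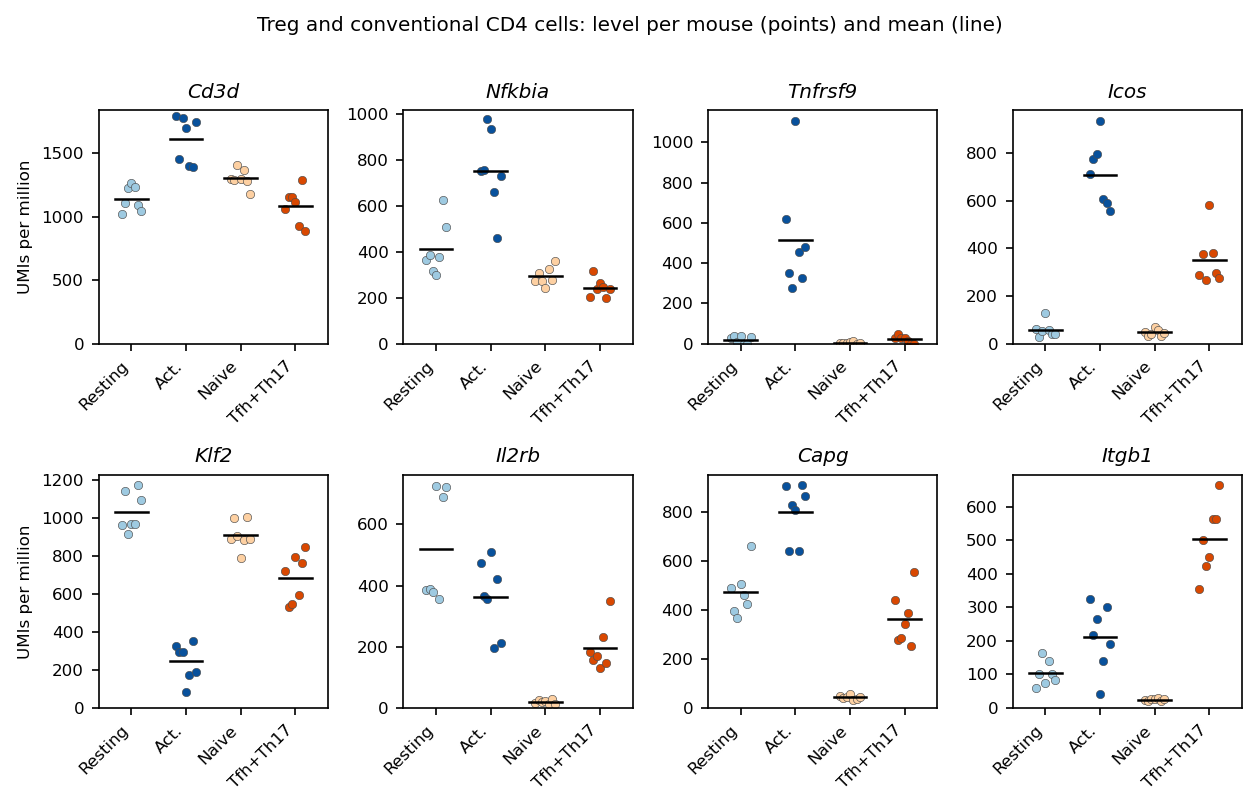
Levels of 8 genes in resting Treg, activated Treg, CD4+ Naive T and summed Tfh and Th17 cells, in CPM after TMM scaling (vertical axis); points are mice and the lines mark means. Nfkbia and Tnfrsf9 are highest in activated Treg, and Itgb1 is highest in Tfh and Th17 cells.

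Genes with a lower value in the Treg contrast included several that resting Treg held above naive cells. Il2rb had 357, 387 and 727 CPM in resting Treg against 13.4, 19.2 and 30.3 CPM in CD4+ Naive T cells, and 198, 367 and 509 CPM in activated Treg against 132, 170.4 and 349.9 CPM in Tfh and Th17 cells, a value of -3.67 (SE 0.29, adjusted p = 1.09e-12). Capg, an actin-capping protein, had 366, 461 and 659 CPM in resting Treg and 32.7, 44 and 56.9 CPM in naive cells, and its value was -2.23 (SE 0.19, adjusted p = 4.16e-12). Itgb1 had 42.5, 219 and 325 CPM in activated Treg, below every Tfh and Th17 sum (355, 501 and 663 CPM), and a value of -3.22 (SE 0.31, adjusted p = 1.92e-10). Klf2 was also lower in the Treg contrast: it had 84.9, 296 and 355 CPM in activated and 916, 969 and 1174 CPM in resting Treg, against 532, 720.0 and 847 CPM in Tfh and Th17 and 791, 892 and 1008 CPM in naive cells, a value of -1.44 (SE 0.17, adjusted p = 3.86e-08). With Early Act. CD4 cells in place of Tfh and Th17 cells, 243 of 1961 genes passed, 33 of them among the 95, and Nfkbia, Itgb1, Itm2a and Ahnak changed sign. Capg had -0.21 there and was not called (adjusted p = 0.689, edgeR).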

How the data were processed

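Droplet-based single-cell RNA sequencing measured lymph node cells sorted, per the labels, as CD45+ CD3+ or, per the series design text, as CD45+. The authors deposited a matrix of raw UMI counts per cell and gene, and tables of each cell's mouse, node, genotype, cell type and CD4 subset. Build GRCm38 and the tools Seurat, Scanpy 1.7.0, bustools 0.40.0 and kallisto 0.46.1 are named in the submitters' processing notes. The sources used here do not describe cell filters or doublet treatment, and no doublet caller was run. Scaled tables were used only for which genes they list.

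Counts were summed per mouse and state and tested with edgeR 4.0.16 in R 4.3.3 (filterByExpr, TMM, quasi-likelihood test, mouse as a block), with Benjamini-Hochberg adjustment over all genes tested and a threshold of 0.05. DESeq2 1.42.0 was an alternative. The block pairs the 2 sums of 1 animal. Each SE was derived from the F statistic (the absolute log2 difference divided by the root of F). Median depth was 2763 UMIs per activated and 2585.5 per resting cell; intervals cover counting error only. Scripts were tested on simulated counts. Shares were compared over mice by exact permutation.

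The members and the 34 gene lists were chosen with earlier results of these data known. Named genes were up to 12 in each direction with the largest difference on the same side in every mouse and mean log2 CPM above 5, up to 4 called members of each list, and 19 fixed genes. In the interactions they were up to 6 called genes in each direction, or the 5 with the smallest p where fewer than 5 passed. Other list members named were chosen after their values were seen. T cell receptor and immunoglobulin segments were counted and not named. Gene positions and symbols come from GENCODE release M21, and promoters from RefSeq (65 of 86 named genes matched). Uterine cells were not analysed here, and single results for 2 genes are not reported here.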

Additional observations from a re-analysis of the deposited data

Results flagged for a closer look

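In each named gene the 7 mice's log2 differences (activated minus resting, prior count 2) were examined for a mouse standing apart from the rest, a check that by chance picks out about 1 in 20 groups. Of 82 genes, 8 had such a mouse, and mouse 6, whose sums held the fewest cells, was that mouse in 4 of them. In mouse 6 the difference was 0.58 for Il6ra (median of the mice -0.56), 0.68 for Lef1 (median -0.88), -3.07 for Tcf7 (median -0.17) and -0.62 for Lgals1 (median 0.82). In mouse 8 it was 0.0742 for Tnfrsf4 (median 2.10) and -0.56 for Ly6a (median 0.61). Mouse 97 had 0.0062 for Ndufa13, a subunit of respiratory complex I (median 0.35), and mouse 1 had -0.49 for Rpl8 (median -0.80).

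The udLN of mouse 8 stood apart with 76.5% activated cells among its Treg (median of the mice 40%). The resting Treg of mouse 6 stood apart with a median of 3536 UMIs per cell, against 2652.5 as the median of the mice. The state difference of Lars2 differed between Aire-DTR and WT mice by 0.82 in the test of the interaction itself.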

How the results depend on the processing

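The count of 333 genes was 205 with DESeq2 (41.0% of calls higher, against 51.7% by edgeR), 210 in brLN alone, 143 in udLN alone, 183 with cells thinned to equal UMIs, 49 with cells entered as CD4+ Treg in both tables, and 273 to 340 with 1 mouse left out. It was 332 with DESeq2's size factors, 406 of 12153 genes without the low-count filter and 357 with the cells as deposited. Without the block that pairs a mouse's 2 sums (no replicate block) it was 315, 312 of them among the 333. Of the genes outside the scaled CD4 table, 256 in number, DESeq2 called 148, brLN alone 169, udLN alone 102 and the thinned cells 151, and 31 passed in the cells entered as CD4+ Treg in both tables.

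Calls of state by genotype were 0 with DESeq2 and 0 to 7 with 1 mouse left out. Calls of state by node were 2 without the filter, 2 with the cells as deposited and 0 to 2 with 1 mouse left out. The comparison with conventional cells gave 57 to 95 calls with 1 mouse left out and 243 with Early Act. CD4 cells. The paired difference in depth was called for genes per cell (190 genes) and not for UMIs per cell.

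Signs turned for Foxp3 with 1 mouse left out (-0.179 to 0.044, the latter without mouse 36) and in brLN alone (0.028), for Crip1 in brLN alone (0.0043), and for Dusp2 in udLN alone (-0.064). In the cells entered as CD4+ Treg in both tables they turned for Dusp2 (-0.38), Il2ra (0.46), Socs1 (0.43), Ccr7 (0.060), Selplg (0.0029), Atp5g3 (-0.015) and Ly6a (-0.0083). With Early Act. CD4 cells they turned for Nfkbia (-0.80), Itm2a (-0.74), Itgb1 (0.056) and Ahnak (0.056). In each case the cause was not tested. Of 79 called genes named by rule, 32 kept their call and sign in every alternative that tested them, and 1313 of 1473 alternative values of the 79 stayed called with the same sign.

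Scaling without the filter moved log2 differences by a median of -0.15 and DESeq2's size factors by -0.03. Without the filter the medians of the integrin, actin, MHC class I, interferon and oxidative phosphorylation lists changed sign. With sums of 7 to 59 cells in the main comparison, genes under 117 CPM in most sums could not be tested.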
